A study of Mus musculus with 10 samples.

Results

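The natriuretic peptides and the fetal gene program of the heart were followed through 6 genes, Nppa, Nppb, Myh6, Myh7, Acta1 and Ankrd1, which were taken by their symbols from a table of 24537 genes. All 6 were found, and all 6 passed the minimum of 10 counts summed over the libraries. Total RNA of 10 hearts, each from 1 mouse aged 6 weeks, was sequenced. There were 5 control mice (Rosa26-rtTA2+/-;TRE-SOD2-shRNA-/-) and 5 iSOD2 mice (Rosa26-rtTA2+/-;TRE-SOD2-shRNA+/-). Both genotypes carried 1 copy of a transactivator driven by the ubiquitous Rosa26 promoter and were exposed to doxycycline in utero only, and in iSOD2 mice this drug switched on a short hairpin RNA against Sod2, which encodes the superoxide dismutase of the mitochondrial matrix. Expression of the hairpin was thus not limited to heart muscle, and the drug was not given after birth. The mice came from 2 litters, called A and B here, with 2 control and 2 iSOD2 mice in litter A and 3 of each in litter B. Litter A held 3 males and 1 female, and litter B held 2 males and 4 females. Mice are named by genotype and by the number in their label.

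The libraries held between 16448090.5 and 24263085.5 counts in genes. Sod2 lay between 9562 and 11019 normalized counts in controls and between 10116 and 11305 in iSOD2 hearts, and the genotypes overlapped (log2 fold change 0.03, SE 0.05, DESeq2 adjusted p 0.806). A normalized count is a count divided by the size factor of its library. The labels call the tissue heart. The ventricular markers Myl2 and Myl3 were abundant in every library, whereas the atrial markers Sln and Myl7 were at 0 to 1 and at 1 to 6 normalized counts in all libraries but iSOD2 10, where they were at 68 and 372.

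The heart switches a group of genes between fetal and adult life. Before birth the mouse ventricle uses Myh7, the slow myosin heavy chain, and makes atrial and B-type natriuretic peptides from Nppa and Nppb. After birth Myh6, the fast heavy chain, takes over in the ventricle, and natriuretic peptide expression there falls. Under mechanical load or disease the fetal genes are often re-expressed, together with Acta1, the skeletal alpha-actin, and Ankrd1, a stretch-responsive repeat protein of the sarcomere and nucleus. This is why these transcripts are widely read as signs of cardiac stress.

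Nppa (NM_008725) and Nppb (NM_008726) are neighbours on chromosome 4, at 148000722 to 148002074 and 147985788 to 147987205 on the plus strand (mm10, counted from 1). Myh6 (NM_010856, 54941921 to 54966607) and Myh7 (NM_080728, 54970688 to 54994549) lie side by side on the minus strand of chromosome 14. Acta1 (NM_009606) is on the minus strand of chromosome 8 at 123891758 to 123894775, and Ankrd1 (NM_013468) is on the minus strand of chromosome 19 at 36111965 to 36119844. Values are sums over the exons of these transcripts.

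The 250 bases before the RefSeq start are shown for the 4 genes called between litters and, for comparison, for Acta1, which did not pass that test. Sequences are from GRCm38.p6, 5′ to 3′ on the strand of the gene. Capitals mark GATAA or TTATC (GATA motif, both strands), CATTCC or GGAATG (MCAT motif, both strands), the CArG box (both strands) and TATAAA (strand of the gene only). The windows are chr4:148000472-148000721 for Nppa, chr4:147985650-147985899 for Nppb, chr14:54994550-54994799 for Myh7, chr19:36119845-36120094 for Ankrd1 and chr8:123894776-123895025 for Acta1.
Nppa: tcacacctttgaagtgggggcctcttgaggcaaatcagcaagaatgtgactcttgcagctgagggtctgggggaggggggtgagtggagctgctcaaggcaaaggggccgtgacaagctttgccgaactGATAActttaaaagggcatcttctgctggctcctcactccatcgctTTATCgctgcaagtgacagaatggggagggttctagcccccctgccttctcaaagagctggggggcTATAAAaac
Nppb: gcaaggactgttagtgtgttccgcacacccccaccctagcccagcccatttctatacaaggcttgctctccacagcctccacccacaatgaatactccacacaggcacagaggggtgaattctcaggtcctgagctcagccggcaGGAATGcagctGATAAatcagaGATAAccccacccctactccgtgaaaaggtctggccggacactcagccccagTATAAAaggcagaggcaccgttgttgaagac
Myh7: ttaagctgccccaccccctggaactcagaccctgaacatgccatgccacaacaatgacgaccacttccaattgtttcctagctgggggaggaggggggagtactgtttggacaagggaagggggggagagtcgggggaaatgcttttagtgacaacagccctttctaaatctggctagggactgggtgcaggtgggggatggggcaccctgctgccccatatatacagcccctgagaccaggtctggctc
Ankrd1: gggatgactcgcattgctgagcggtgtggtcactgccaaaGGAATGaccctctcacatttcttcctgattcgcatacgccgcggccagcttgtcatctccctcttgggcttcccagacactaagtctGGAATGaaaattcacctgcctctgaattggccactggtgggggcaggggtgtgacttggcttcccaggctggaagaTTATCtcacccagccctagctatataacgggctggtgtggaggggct
Acta1: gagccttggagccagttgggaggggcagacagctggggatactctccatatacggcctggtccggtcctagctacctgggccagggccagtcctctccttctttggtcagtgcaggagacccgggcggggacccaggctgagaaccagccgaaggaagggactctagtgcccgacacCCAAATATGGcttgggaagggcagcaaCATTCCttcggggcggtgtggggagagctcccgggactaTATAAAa

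The RefSeq start of Nppb lies 112 bases from the start in the count table, and the other windows end at the table's own start. Over all 6 members, the GATA motif was found in 3 windows (Nppa, Nppb, Ankrd1), against 25.5% of the windows of 27025 genes. The MCAT motif was found in 4 (Nppb, Myh6, Acta1, Ankrd1), against 14.4%. Acta1 alone held a CArG box, CCAAATATGG, which 1.62% of genes had, and TATAAA was found in Nppa, Nppb and Acta1, against 8.94%. None of these letters occurred in the Myh7 window. These are matches of letters and not binding data.

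Per kb of exon, Myh6 was the most abundant member, at 157006 ± 16761 normalized counts (SD, n = 10 hearts), and it ranked number 3 among all genes fitted. It took 3.88% to 5.08% of all counts of a library. Myh7 followed at 6129 ± 774 per kb, and the ranges of the 2 myosins did not overlap. Ankrd1 was at 3411 ± 1017, Nppa at 2159 ± 2453, Acta1 at 2124 ± 619 and Nppb at 1365 ± 529 per kb. From Myh7 downward the range of each gene over the hearts overlapped that of the next. Within hearts, Myh7 exceeded Ankrd1 in 10 of 10, Ankrd1 exceeded Nppa in 9 of 10, and Acta1 exceeded Nppb in 10 of 10. Nppa exceeded Acta1 in 3 of 10, so the order of these 2 genes was not the same in every heart. Actc1, the cardiac alpha-actin that Acta1 can accompany, stood at 144313 ± 11212 per kb.

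The members also differed in how much they varied between mice of 1 genotype. The within-genotype SD of log2(normalized count + 1) was 1.08 for Nppa, 0.58 for Nppb, 0.43 for Acta1 and 0.40 for Ankrd1, against 0.20 for Myh7 and 0.16 for Myh6. The median over the 12151 genes averaging 50 or more normalized counts was 0.12, and 99.3% of these genes varied less than Nppa, 79.7% less than Myh7 and 67.1% less than Myh6. The highest Nppa value was 15.3 times the lowest, whereas this ratio was 1.39 for Myh6. All 6 members thus varied more than the median gene, the myosins least.

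Genotypes were compared to ask whether these stress readouts still differed weeks after the knockdown. Of the 6 members, 0 were called, against 2.96% of the 9479 genes with an adjusted p, where a call needs a DESeq2 adjusted p of at most 0.05 and an absolute log2 fold change above 0.25. At an unadjusted p under 0.05 the count was 1 of 6, Nppa, against 13.2% of genes. The genotypes did not separate fully for any of the 6 members, as they did for 3.75% of genes. With edgeR's quasi-likelihood test 0 members were called as well, where 0 of all genes were. The median log2 fold change of the 6 was 0.17, against −0.00 over all genes fitted.

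Nppa, which encodes atrial natriuretic peptide, was at 2071, 1029, 498, 752 and 809 normalized counts in controls 1, 2, 3, 4 and 6. The iSOD2 mice 5, 7, 8, 9 and 10 had 1426, 1820, 7592, 579 and 1880. The groups overlapped, and 1 heart, iSOD2 8, lay far above all others. The log2 fold change was 1.37 (SE 0.67, 95% interval 0.05 to 2.69, DESeq2 adjusted p 0.226), and 0.72 (SE 0.29, adjusted p 0.133) with litter and sex in the model. Without iSOD2 8 it was 0.47 (adjusted p 0.672), and without iSOD2 10, the library with atrial transcripts, it was 1.47 (adjusted p 0.297). Between the males the genotypes had the same mean Nppa, 1199 in controls and 1200 in iSOD2 mice, while between the females the means were 781 and 3632. The latter includes iSOD2 8, and the other 2 iSOD2 females were at 1426 and 1880. Both control females were of litter B and iSOD2 8 was of litter A, so that among females genotype and litter were partly mixed. The genotype-by-sex interaction of Nppa was 2.22 on the log2 scale (SE 1.30, DESeq2 unadjusted p 0.0882). After adjustment it passed for 0 of the 6 members, as for 0.0% of all genes, and with edgeR also for 0. The lowest unadjusted p among the members was that of Ankrd1, 0.0572.

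The atrial markers did not all point the same way in iSOD2 8. Myl7 was at 4 normalized counts there, within the 1 to 6 of the other libraries besides iSOD2 10, Sln was at 0, and the summed atrial markers were at their lowest, 2879, against 3011 to 4066 elsewhere. That sum is mostly Kcnj3 and Kcna5, ion channel genes at 1979 and 471 in this heart, and another marker of the list, Dkk3, was highest in it, at 146 against 52.5 to 138 in the others. In iSOD2 10, by contrast, Myl4 was at 428 and Mybphl at 57, against 18 to 61 and 0 to 5 in the other hearts. Within those ranges iSOD2 8 was near the top, with Myl4 at 59 and Mybphl at 4. Atrial tissue is rich in Nppa, and its part in the 1880 counts of iSOD2 10 and in those of iSOD2 8 was not tested. In bulk tissue, fewer cells of a type and less RNA per cell cannot be told apart.

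Beside these differences, 2 of the 4 smooth muscle markers were called higher in iSOD2 hearts. Of all genes with an adjusted p, 2.96% were called in either direction. Of the other markers, Acta2 had −0.07 (SE 0.33, DESeq2 adjusted p 0.935) and Cnn1 had 0.07 (SE 0.22, DESeq2 unadjusted p 0.742). Tagln had 0.40 (SE 0.10, DESeq2 adjusted p 0.00361), and Myh11 had 0.28 (SE 0.09, adjusted p 0.0491), a call that ended when any heart but control 6 or iSOD2 10 was left out (adjusted p 0.0680 to 0.229). With edgeR neither was called (adjusted p 0.0745 and 0.158). The summed hepatocyte markers ran from 91.3 to 8634 normalized counts in controls and from 4060 to 18128 in iSOD2 hearts, and none of them was called. The part of these markers in the member values was not tested.

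Nppb, which encodes B-type natriuretic peptide, was at 1281, 1620, 554, 937 and 656 normalized counts in controls 1, 2, 3, 4 and 6 and at 1034, 1055, 1818, 928 and 707 in iSOD2 mice 5, 7, 8, 9 and 10. The genotypes spanned nearly the same range (log2 fold change 0.13, SE 0.35, adjusted p 0.876).

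Ankrd1 was at 7568, 6716, 4579, 4640 and 4091 normalized counts in controls 1, 2, 3, 4 and 6 and at 5683, 6247, 9979, 4557 and 5765 in iSOD2 mice 5, 7, 8, 9 and 10. Again iSOD2 8 was the highest heart, and the other 4 iSOD2 mice lay inside the control range (log2 fold change 0.22, SE 0.27, adjusted p 0.697). With litter and sex in the model the difference was 0.17 (SE 0.09, DESeq2 adjusted p 0.299). Acta1 was at 3534, 3280, 2405, 1942 and 3388 in the controls and at 2648, 2824, 4929, 2227 and 4084 in the iSOD2 mice, in the same order. Both iSOD2 8 and iSOD2 10 exceeded all controls, and the difference did not pass (log2 fold change 0.20, SE 0.27, adjusted p 0.728). Nppa, Nppb, Acta1 and Ankrd1 thus each had their highest value in the same mouse.

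Myh6 was at 1077212, 1056860, 892364, 903766 and 905883 normalized counts in controls 1, 2, 3, 4 and 6 and at 938302, 1049010, 957182, 825710 and 773262 in iSOD2 mice 5, 7, 8, 9 and 10. Myh7 was at 39593, 41743, 32506, 35291 and 35877 in the controls and at 37225, 43253, 41583, 31507 and 29847 in the iSOD2 mice, in the same order. Neither myosin separated the genotypes. The log2 fold changes were −0.09 for Myh6 (SE 0.09, adjusted p 0.609) and −0.01 for Myh7 (SE 0.10, adjusted p 0.967), and the 95% interval for Myh7 ran from −0.22 to 0.19.

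The Myh7 to Myh6 ratio is taken within a library and needs no scaling between libraries. As a share of both genes per kb of exon, Myh7 was 3.52%, 3.78%, 3.49%, 3.74% and 3.79% in controls 1, 2, 3, 4 and 6 and 3.79%, 3.94%, 4.14%, 3.65% and 3.69% in iSOD2 mice 5, 7, 8, 9 and 10. The means were 3.66% ± 0.143 and 3.84% ± 0.198 (SD, n = 5 each), and 3 iSOD2 hearts exceeded the highest control. The difference in log2 ratio was 0.07, with an interval from −0.03 to 0.17, and did not pass a two-sided exact permutation test over all arrangements (p 0.143, or 0.214 after Benjamini-Hochberg, BH, adjustment over 3 isoform ratios). The 2 transcripts are 91.1% identical over aligned bases, and 44.1% of Myh6 lies in identical runs of at least 50 bases. How reads of such runs were divided is not given in the sources used here, so the size of the share is uncertain.

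**Figure D1:**
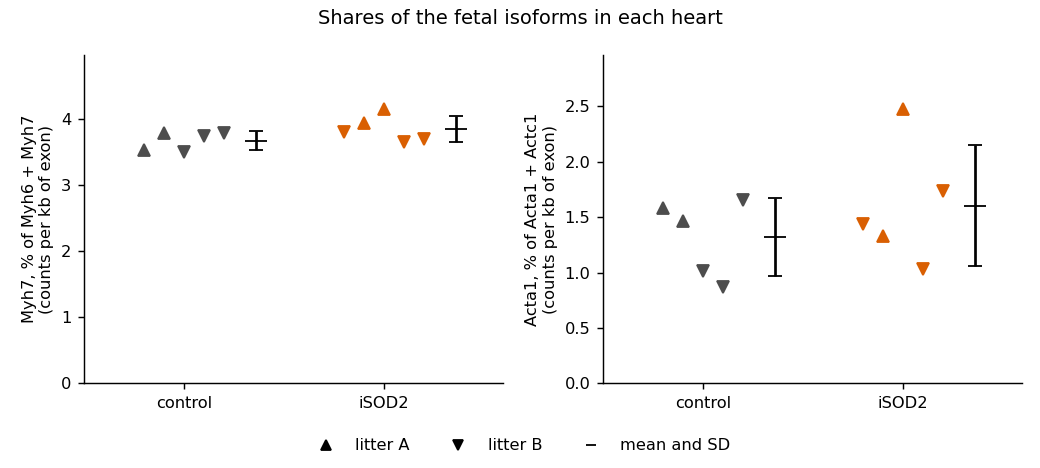
Shares of Myh7 among both cardiac myosin heavy chains (left) and of Acta1 among both alpha-actins (right), in percent of counts per kb of exon, for each of 5 control and 5 iSOD2 hearts. Triangles point up for litter A and down for litter B, and bars give the mean and SD. The Myh7 share lies between 3.49% and 4.14% in all 10 hearts, and the genotypes overlap in both panels.

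Acta1 made up 0.874% to 1.66% of both alpha-actins per kb in controls and 1.04% to 2.47% in iSOD2 hearts. The highest share was in iSOD2 8, and the log2 ratio of Acta1 to Actc1 differed by 0.27 (interval −0.41 to 0.96, exact permutation p 0.397, BH 0.397). The fetal troponin Tnni1 was near the detection floor of 3 counts, at 0 to 5.93 normalized counts in controls and 4.89 to 12.3 in iSOD2 hearts, beside 68864 for the adult troponin Tnni3. With 0.5 counts added to each gene, the log2 ratio of Tnni1 to Tnni3 was higher in iSOD2 mice by 1.63 (exact permutation p 0.0873, BH 0.214). As 2 controls had no Tnni1 count, this value depends on the added 0.5 and is no fold change.

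Litters were compared in the same model with genotype as a covariate, because litters were balanced over genotype. Here 4 of the 6 members were called, all lower in litter B. Over all genes 3.5% of 15654 were called between litters, and 0.977% were called lower in litter B. At any fold change, 5 of the 6 had an adjusted p of at most 0.05, against 4.31% of genes. The median log2 fold change of the members was −0.52, against −0.00 over all genes fitted, and all 6 members were lower in litter B.

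**Figure D2:**
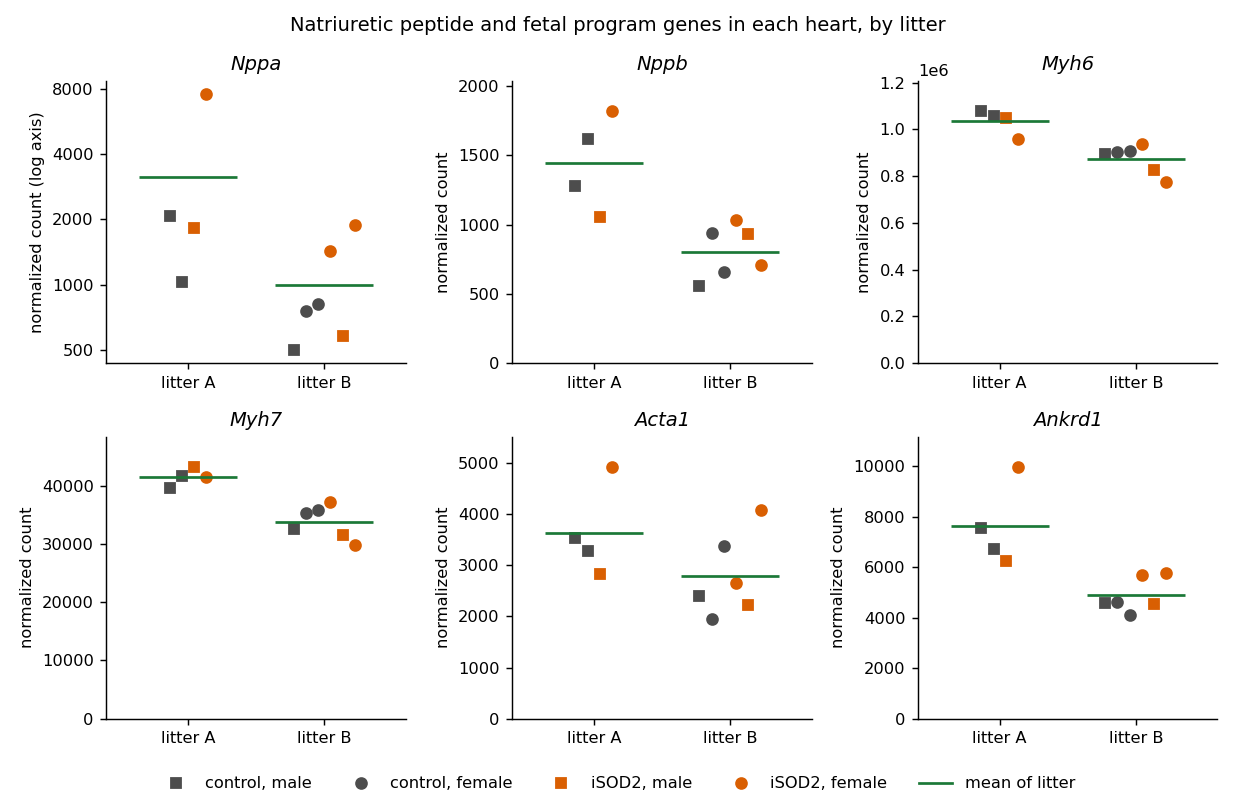
Normalized counts of the 6 members in each heart, by litter. The Nppa axis is logarithmic, the other axes start at 0, squares are males, circles females, grey controls, orange iSOD2 mice, and green lines are litter means. All 4 hearts of litter A lie above all 6 of litter B for Nppb, Myh6, Myh7 and Ankrd1, but not for Nppa and Acta1.

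Ankrd1 showed the clearest difference. It ran from 6247 to 9979 normalized counts in the 4 hearts of litter A and from 4091 to 5765, with a median of 4610, in the 6 of litter B, without overlap. The means were 7627 ± 1660 and 4886 ± 679 (SD), or −0.65 on the log2 scale for B against A (SE 0.11, DESeq2 adjusted p 6.02e-07). Nppb ran from 1055 to 1818 in litter A and from 554 to 1034, with a median of 818, in litter B, or −0.86 on the log2 scale (SE 0.22, adjusted p 0.00565).

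Nppa ran from 1029 to 7592 in litter A and from 498 to 1880, with a median of 781, in litter B. The litters overlapped, and the difference of −1.53 on the log2 scale (SE 0.50) passed narrowly, with a DESeq2 adjusted p of 0.0493. Without iSOD2 8 it was −0.93 (adjusted p 0.295), and Nppa was then not called. Leaving out control 1 (adjusted p 0.263), control 3 (0.130), control 4 (0.0919), control 6 (0.0644) or iSOD2 5, 9 or 10 (0.0876, 0.0787 and 0.0669) also ended the Nppa call. Nppb was no longer called without control 1 (adjusted p 0.0510), control 2 (0.0800) or iSOD2 8 (0.0747).

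Myh7 ran from 39593 to 43253 in litter A and from 29847 to 37225, with a median of 33898, in litter B, or −0.30 on the log2 scale (SE 0.07, DESeq2 adjusted p 0.000414). Myh6 ran from 957182 to 1077212 in litter A and from 773262 to 938302, with a median of 898065, in litter B. Its difference of −0.25 on the log2 scale (SE 0.06, adjusted p 0.000933) passed the test but stood just under the fold threshold of 0.25, so Myh6 was not counted as called. Acta1 ran from 2824 to 4929 in litter A and from 1942 to 4084 in litter B, or −0.39 on the log2 scale (SE 0.26, adjusted p 0.539).

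For Nppb, Myh6, Myh7 and Ankrd1, every heart of litter A exceeded every heart of litter B. Of all 17728 genes fitted, 4.1% separated the litters in either direction, 1.81% showed that pattern, and of those averaging 50 or more normalized counts 2.02%. The two-sided exact permutation p was 0.00476 for each of the 4 genes, the smallest that 210 arrangements allow, and 0.01 with litters permuted within genotype, the smallest that 100 arrangements allow. For Nppa these values were 0.0429 and 0.02, and for Acta1 0.138 and 0.15, all unadjusted.

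**Figure D3:**
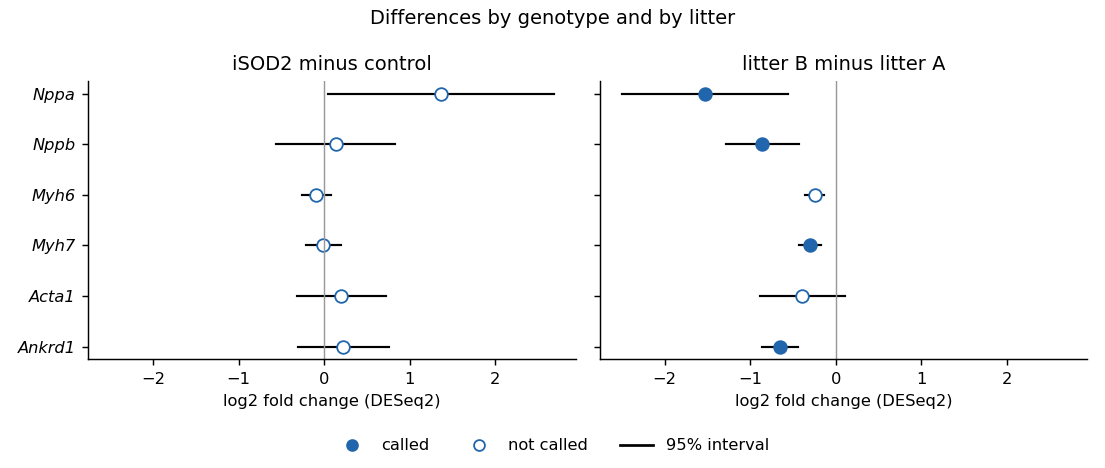
DESeq2 log2 fold changes of the 6 members with 95% intervals, iSOD2 minus control (left) and litter B minus litter A (right). Filled points were called. By genotype 0 of 6 are called and only the interval of Nppa leaves out 0, and by litter 4 of 6 are called and all 6 points lie below 0.

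Because litter A held more males, the litters were also compared within sex and within genotype. Among the 5 males, all 3 of litter A exceeded both of litter B for all 6 members. For Ankrd1 the males ran from 6247 to 7568 in litter A and from 4557 to 4579 in litter B, and for Nppa from 1029 to 2071 and from 498 to 579. Among the 5 controls, litter A exceeded litter B for 5 members, with Acta1 the exception. Among the 5 iSOD2 mice this held for Nppb, Myh6, Myh7 and Ankrd1, while Nppa and Acta1 overlapped. For Nppb, Myh6, Myh7 and Ankrd1 these separations had to follow from that over all 10 hearts, so they are no further check. The share of all genes that separate the litters within these smaller groups was not determined.

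With genotype, litter and sex all in the model, the same 4 members were called between litters, at log2 fold changes of −1.99 for Nppa (adjusted p 8.40e-08), −0.95 for Nppb (0.0136), −0.34 for Myh7 (9.75e-05) and −0.74 for Ankrd1 (2.07e-11). Over all genes that model called 461 of 15322 between litters. The genotype-by-litter interaction passed for 0 of the 6 members and for 0.00564% of all genes. A litter is 1 family, so the spread between its mice does not measure the spread between families, and litter cannot be told apart from whatever else the litters did not share, such as dam or day of collection.

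**Figure D4:**
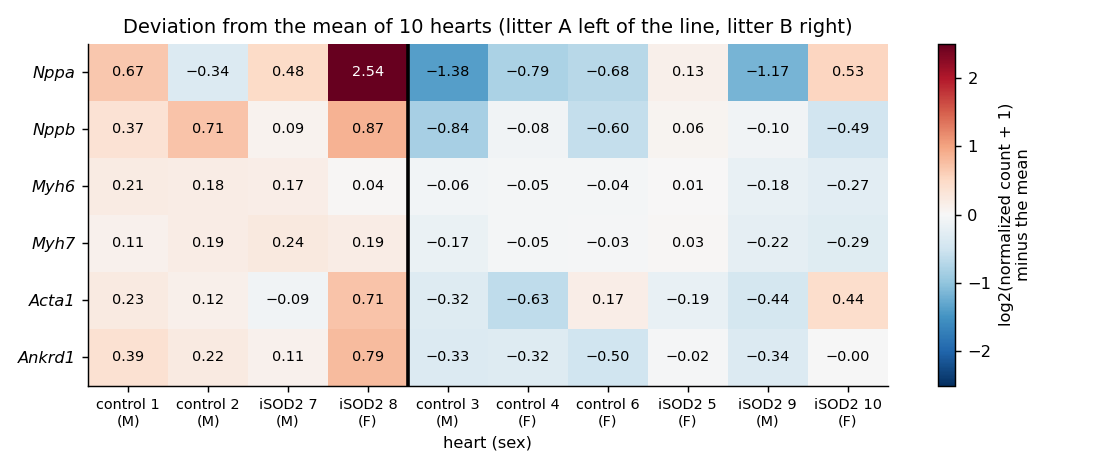
Deviation of each member in each heart from its mean over 10 hearts, on the log2(normalized count + 1) scale, red above and blue below, with sex in parentheses and a black line between litter A and litter B. In iSOD2 8 Nppa stands 2.54 above its mean, the most extreme cell, and Nppb, Myh6, Myh7 and Ankrd1 are above their means in all 4 hearts of litter A.

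Sex alone called 0 of the 6 members, where 0.483% of 16348 genes were called. At an unadjusted p under 0.05 no member passed either, since the lowest p was 0.169 (Myh6), and edgeR also called 0. In the model that held genotype, litter and sex together, Nppa was called higher in females (log2 fold change 1.31, DESeq2 adjusted p 0.0128). That model called 61 of 17728 genes by sex and was not fitted for sex with a heart left out. In litter B the control females had 752 and 809 Nppa counts, iSOD2 5 and iSOD2 10, also females, 1426 and 1880, and the males 498 and 579. The 1 female of litter A, iSOD2 8, had 7592 and its males 1029 to 2071. Within each litter every female thus exceeded every male, but in litter A this rests on iSOD2 8 alone. The share of all genes with this pattern was not determined.

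Several marker lists moved with litter. The summed ventricular markers (Myl2, Myl3, Irx4, Hey2) ran from 218593 to 226109 normalized counts in litter A and from 184542 to 211254 in litter B, without overlap. The sums are set by their most abundant genes. Of the 4 ventricular markers 3 were lower in litter B and 1 was higher. Hey2 overlapped, at 92 to 120 in litter A and 101 to 132 in litter B. Skeletal muscle markers, mostly Mybpc2, summed to 668 to 852 in litter A and 372 to 541 in litter B, with Myh1, Myh2 and Pvalb at 0 in at least 1 library. The sum of the smooth muscle markers went the other way, at 5345 to 6285 in litter A and 7517 to 10971 in litter B, and this was Acta2. Of the other markers, Myh11 (log2 fold change −0.07, adjusted p 0.838) and Tagln (−0.08, adjusted p 0.816) were not higher in litter B, and Cnn1 (0.31, adjusted p 0.611) did not pass. The sums of the atrial (2879 to 3572 and 3011 to 4066), fibroblast, endothelial, macrophage and hepatocyte markers overlapped. Depth overlapped as well, at 18488869 to 23461589.5 counts in litter A and 16448090.5 to 24263085.5 in litter B.

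The members were then set against the summed ventricular markers of the same heart, a comparison chosen after the litter difference was seen. That sum was itself higher in litter A, so dividing by it shifts the log2 litter difference of every member by the same amount. All 6 differences were smaller than on the scale of normalized counts. The comparison therefore cannot tell which members follow the ventricular markers. Myh6 differed between litters by −0.08 on the log2 scale (exact permutation p 0.376) and Myh7 by −0.14 (exact permutation p 0.143). Ankrd1 differed by −0.46 (exact permutation p 0.0143) and Nppb by −0.68 (exact permutation p 0.0238). Nppa differed by −1.23 (exact permutation p 0.0524) and Acta1 by −0.24 (exact permutation p 0.352). The litters then overlapped for all 6 members. The part of the other marker lists in the litter difference was not tested.

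**Figure D5:**
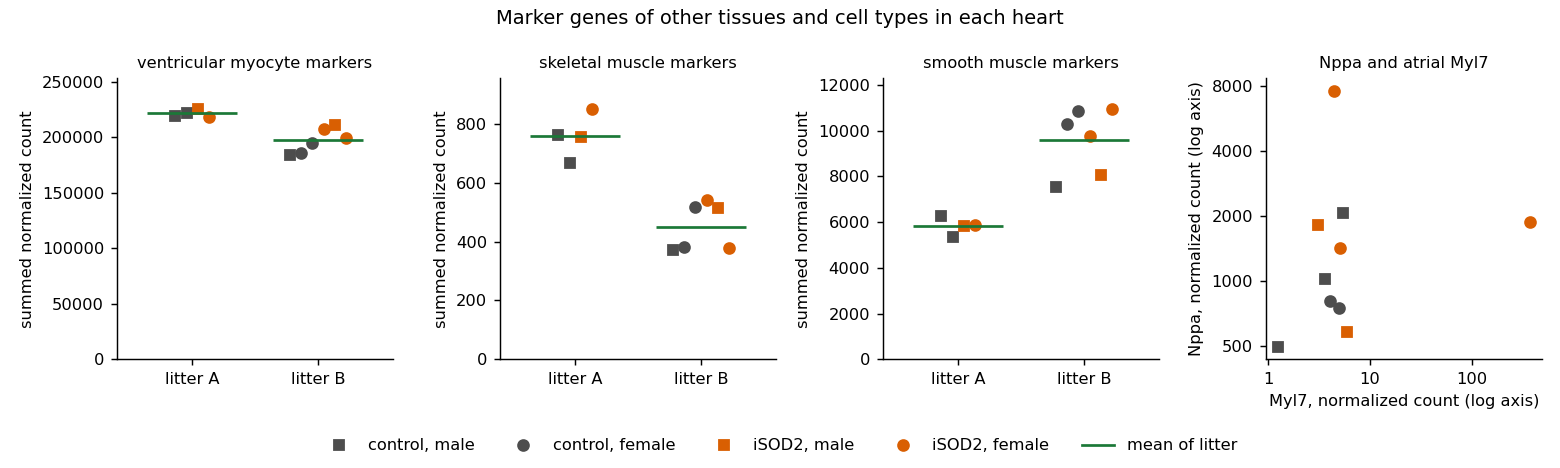
Summed normalized counts of the ventricular, skeletal muscle and smooth muscle markers in each heart by litter (first 3 panels, green lines are litter means), and Nppa against the atrial marker Myl7 in each heart on log axes (last panel). Squares are males, circles females, grey controls and orange iSOD2 mice. The litters do not overlap in the first 3 panels, and in the last panel iSOD2 10 alone has high Myl7 and iSOD2 8 alone has Nppa above the 2071 of control 1.

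The Myh7 to Myh6 ratio, by contrast, did not separate the litters. The mean log2 ratio was −4.65 in litter A and −4.71 in litter B, a difference of 0.06 (exact permutation p 0.233). Both heavy chains were lower together in litter B, and their balance moved little. The part of reads shared by both transcripts in the Myh7 litter difference was not tested. The antisense transcript Mhrt, which overlaps Myh7 on the opposite strand over 463 exon bases (7.33% of Myh7), had −0.22 on the log2 scale in litter B and did not pass (SE 0.08, adjusted p 0.0635). Reads of this overlap cannot be assigned to a strand with certainty, since no strand setting of the counting is given. Mir208a and Mir208b, the microRNA genes inside Myh6 and Myh7, had 27.5 to 52.5 and 83.5 to 178.0 raw counts and litter log2 fold changes of 0.01 and 0.01 (adjusted p 0.994 and 0.985).

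On chromosome 4, Clcn6, the chloride transporter gene next to Nppa, had a litter log2 fold change of −0.21 (SE 0.09, adjusted p 0.220). In the GENCODE annotation of the same build the antisense gene Gm13054 covers 61.5% of the exon bases of Nppa. Gm13054 was not analysed here, and Nppa counts may include its reads.

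Genes that make, sense and clear the natriuretic peptides were read out in the same fits. Of 10 such genes 9 were fitted, and 8 had an adjusted p by genotype and 9 by litter. Of these, 0 were called by genotype or by litter, against 2.96% and 3.5% of all genes. Median log2 fold changes were −0.05 by genotype and −0.04 by litter. By genotype the largest differences were those of Mme (neprilysin, which degrades the peptides, −0.25, adjusted p 0.457), Npr3 (the clearance receptor, 0.22, adjusted p 0.156) and Npr1 (the guanylyl cyclase receptor, −0.14, adjusted p 0.262). Corin and Furin, the proteases that process the precursors, had litter log2 fold changes of −0.04 (adjusted p 0.922) and −0.01 (adjusted p 0.964).

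Among 14 sarcomere isoform genes that accompany the switch, 11 had an adjusted p by genotype. Of these 0 were called, against 2.96% of all genes. The largest differences with an adjusted p were those of the cardiac troponin genes Tnnt2 (0.18, adjusted p 0.0748) and Tnnc1 (0.15, adjusted p 0.113). The atrial light chain Myl4 had 1.87 with no adjusted p, because DESeq2 gave it no p, and its count in iSOD2 10 was the extreme one. By litter 2 of the 12 with an adjusted p were called, against 3.5% of all genes. Myh7b, a heavy chain related to Myh7, ran from 2239 to 2714 normalized counts in litter A and from 950 to 2084 in litter B (log2 fold change −0.68, SE 0.21, adjusted p 0.0355). Its call ended without control 1, 2 or 4 or without iSOD2 7, 8, 9 or 10 (adjusted p 0.0716 to 0.191). Acta2, the smooth muscle alpha-actin, ran from 3740 to 4730 in litter A and from 6108 to 9445 in litter B (0.96, SE 0.16). Actc1 did not differ by litter beyond its error (0.02, SE 0.07, adjusted p 0.957).

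Among 16 load and stretch genes 10 had an adjusted p by genotype, and 1 was called, against 2.96% of all genes. Xirp1, an actin-binding protein of the intercalated disc, fell by 0.31 on the log2 scale in iSOD2 hearts (SE 0.10, DESeq2 adjusted p 0.0277). Thbs1 (−0.45, adjusted p 0.0767) and Ctgf (0.34, adjusted p 0.0570), both matricellular proteins, did not pass. By litter 15 of the 16 had an adjusted p, and 3 were called, against 3.5% of all genes. Ankrd23, a relative of Ankrd1 in the titin-binding ankyrin repeat family, was lower in B (−0.44, SE 0.11, adjusted p 0.00389). It was at 4247 to 4743 normalized counts in litter A and 2270 to 4122 in litter B. Ctgf (0.29, adjusted p 0.0308) and Tnc (tenascin C, 0.56, adjusted p 0.0496) were higher in litter B. Without 1 heart the adjusted p of Ankrd23 reached 0.154 (iSOD2 8; also lost without control 3 or iSOD2 5), that of Ctgf 0.236 (iSOD2 7; also lost without control 1, control 4 or iSOD2 10), and Tnc kept its call only without iSOD2 5 or iSOD2 8. With sex also in the model all 3 calls ended (adjusted p 0.176 for Ankrd23, 0.199 for Ctgf and 0.218 for Tnc), and with edgeR they ended too (0.0626, 0.0879 and 0.119).

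Of 30 regulators of the program, 22 had a negative genotype log2 fold change, against 8943 of all 17728 genes, with a median of −0.10. Of the 28 with an adjusted p, 1 was called, near the 2.96% of all genes. Mef2d, a MADS-box transcription factor of muscle, fell by 0.26 (SE 0.08, DESeq2 adjusted p 0.0340). Tead1, which binds MCAT motifs (−0.28, adjusted p 0.0926), and Mkl1, a cofactor of serum response factor (−0.26, adjusted p 0.0912), had larger differences and did not pass. The calls of Xirp1 and Mef2d both ended without control 1, 2 or 3 or without iSOD2 5, 8, 9 or 10 (adjusted p 0.0527 to 0.116 for Xirp1 and 0.0522 to 0.184 for Mef2d). Smarca4, a chromatin remodeller ATPase, had an adjusted p of 0.00163 at −0.17, under the fold threshold, and was named after its values were seen. By litter 1 of the 30 regulators was called, against 3.5% of all genes. This was Myocd, the other main cofactor of serum response factor, at −0.25 on the log2 scale in litter B (SE 0.08, adjusted p 0.0228). Its call ended without control 1, 2 or 3 or without iSOD2 5, 7 or 10. It also ended with sex in the model (adjusted p 0.109), with edgeR (0.0850) and with TMM scaling, where the difference fell just under the fold threshold. Gata4, a cardiac factor that binds GATA motifs, had −0.17 by litter (adjusted p 0.0890) and −0.16 by genotype (adjusted p 0.184).

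Across the 10 hearts, of 15 pairs, 5 of members had a BH adjusted permutation p of at most 0.05 for Pearson's r of log2(normalized count + 1). Myh6 and Myh7 had r 0.92 (BH 0.00300, Spearman's rho 0.92, BH 0.00720), and r was 0.93 without the 2 hearts farthest from the median. Nppa and Ankrd1 had r 0.90 (BH 0.00607, rho 0.83, BH 0.0183) and 0.78 without those hearts. The values were r 0.83 (BH 0.0143, rho 0.87) for Nppb and Ankrd1, 0.80 (BH 0.0169, rho 0.83) for Nppa and Acta1, and 0.75 (BH 0.0393, rho 0.78) for Nppb and Myh7.

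Within the 6 hearts of litter B, r was 0.93 for Myh6 and Myh7 (exact permutation p 0.00139, Benjamini-Hochberg (BH) adjusted over 15 pairs 0.0208). It was 0.81 for Nppa and Ankrd1 (exact permutation p 0.0653), 0.68 for Nppa and Acta1 (0.140), 0.37 for Nppb and Myh7 (0.453) and 0.35 for Nppb and Ankrd1 (0.468). Litter A, with 4 hearts, was too small for a correlation. Of the 5 pairs, that of the myosins passed within litter B, and the other 4 did not. The myosin transcripts share long identical runs, and the part of shared reads in their correlation was not tested.

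Among the 12151 genes averaging 50 or more normalized counts, those most like each member over the 10 hearts were found by Pearson's r. Dus2, a dihydrouridine synthase, was nearest to both Nppa (r 0.93) and Ankrd1 (r 0.96). Nppa was followed by Tmem205 (0.92) and Tmem175 (0.92), and Ankrd1 by the integrin Itgb5 (0.95) and by Clu, the chaperone clusterin (0.95). Nppb was nearest to Hs3st5 (0.94), Peg13 (0.94) and Abcf3 (0.94). Among the 3 genes nearest to Myh6 were Klhdc1 (0.96) and the muscle kinase gene Alpk3 (0.96), and Myh7 was nearest to Dynll2 (0.96), Sugp1 (0.96) and 2610027K06Rik (0.95). Acta1 was nearest to Pdcd2 (0.93), Ssh3 (0.89) and Sys1 (0.89). These coefficients are the highest of many and share the hearts and the litter structure, so they are given as a description.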

How the data were processed

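RNA-seq of 10 hearts was analysed from 1 table of estimated counts per gene, which the authors deposited with no scaling. Per the labels and the study's methods, reads were trimmed, aligned with STAR to mm10 and counted over exons with HOMER, and no strand setting is given in the sources used here. Counts come in steps of 0.5 and were rounded. Genes with under 10 counts in all were dropped. Genotypes were compared with DESeq2 1.42.0 in R 4.3.3 (adjusted p at most 0.05, absolute log2 fold change above 0.25), with no covariate in the main fit. Litter and sex were compared with genotype as covariate. The alternatives included edgeR 4.0.16, other scalings, single litters and sexes, and leaving out each heart. The litter alternatives were chosen after seeing the data. Single values were tested by two-sided exact permutation, and correlations with 100000 permutations. The members and gene lists were chosen with earlier results of these data known. Named genes were the members, their isoform partners, and in each list the called genes or the 3 with the largest change among those averaging at least 50 normalized counts, plus the 3 genes most like each member. Some genes that this rule names are not reported here. Each sample is 1 mouse, so p-values measure the spread between mice of 2 litters.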

Additional observations from a re-analysis of the deposited data

Results flagged for a closer look

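Nppa in iSOD2 8, a female of litter A, was at 7592 normalized counts. The value stood far from the rest of both groups it belongs to, the 5 iSOD2 mice, where the next was 1880, and the 4 mice of litter A, where the next was 2071. Of 36 groups of values checked in this way 2 were marked, both by this heart, and chance marks about 1 in 20 for normally distributed values. Members were checked on normalized counts, and the check was not run on their log2 scale. Nppb, Acta1 and Ankrd1 were also highest in this heart, without standing apart by the same measure.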

How the results depend on the processing

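Of 406 alternative values over 22 results, 338 were counted as the same. For fold changes and ratios this meant the same direction and side of the threshold. For counts of called genes or pairs it meant an equal or similar number, not that the same genes were called. No member was called by genotype under any alternative run. The count of genes called by genotype in the 4 pathway lists, 2 (Xirp1 and Mef2d), became 0 with edgeR, in litter B alone and in males alone. It was 1 with the exon length trend removed (Xirp2), in females alone (Thbs1) and with sex as covariate (Xirp1). It was 4 with litter as covariate (Xirp1, Mef2d, Thbs1 and Ctgf) and with litter and sex (Xirp1, Xirp2, Thbs1 and Ctgf). It was 0 to 3 when 1 heart was left out. The count of members called between litters, 4, became 1 in control mice alone and 0 in iSOD2 mice alone, where fewer hearts were compared, and 2 to 4 when 1 heart was left out, with the 2 obtained without control 1. For Nppa the litter call was also lost with edgeR (adjusted p 0.0519), upper-quartile scaling (0.0507) and, just above the threshold, TMM scaling. Between sexes 1 member, Nppa, was called with genotype, litter and sex in the model. Genotype log2 fold changes of uncalled members turned. Nppb had −0.0031 with the length trend removed, −0.012 in litter A and −0.21 in males, and −0.12 to 0.37 when 1 heart was left out. Myh7 had 0.060 with the length trend removed, 0.024 in females, 0.062 in litter A and 0.0019 with sex as covariate, and −0.079 to 0.053 when 1 heart was left out. In males Acta1 had −0.28, Ankrd1 −0.22 and the log2 ratio of Acta1 to Actc1 −0.19. The log2 ratio of Tnni1 to Tnni3 was 1.115 to 2.02 when 1 heart was left out, with exact permutation p 0.0317 without control 2 and 0.0238 without control 4. The causes were not tested. No paired analysis was possible because the genotypes share fewer than 2 replicate numbers. The litters that the genotypes share were not in the main genotype fit and entered as a covariate in alternative fits only.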
